A study of Mus musculus with 2 samples.

Results

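The genes described here are the Id family and a core set of the bone morphogenetic protein (BMP) pathway, 10 genes in all out of the 19938 that the arrays measured by a probeset of their own. They are Id1, Id2, Id3 and Id4, the ligand gene Bmp4, the receptor gene Bmpr1a, the signal-transducing Smad1 and Smad5, and the inhibitory Smad6 and Smad7. The genes were chosen by symbol, partly because earlier results of these data had shown differences in some of them, so their differences are given as a description. A gene's value was the mean of the probesets that the platform annotation assigns to it alone, and each of the 10 has 1 probeset.

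The cells were i-OSKM-ESC, a KH2-derived mouse embryonic stem cell line of strain 129 background, in which doxycycline switches on the reprogramming factors Oct4, Klf4, c-Myc and an epitope-tagged Sox2. One array held RNA of cells that had 4 µg/mL doxycycline for 24 hours, and the other held RNA of cells given fresh medium without it. Both groups carry the same engineered factors and grew on gelatin-coated plastic, and the sources used here do not give the number of clones. Values are log2 RMA values (RMA is a background correction, between-array scaling and summary of the probes of a probeset), and the arrays are called +Dox-labelled and -Dox-labelled below, with every difference given as the first minus the second. With 1 array per group, no difference below has a replicate, an error between cultures or a p-value, and whether groups of cultures would overlap cannot be seen. A parental line given doxycycline was not analysed here, so effects of the drug and of the factors cannot be told apart. Of the induced factors, Sox2 was lower in the array that should hold more of it, with 10.88 in the +Dox-labelled array against 11.89 in the -Dox-labelled array (difference -1.01), while Pou5f1, which encodes Oct4, differed by 0.41, Klf4 by 0.43 and Myc by 0.35. The sources used here do not say whether the probes read the transgenes, so every direction below rests on how the arrays were labelled.

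BMP ligands bind paired type I and type II receptors on the cell surface. The type I receptor then phosphorylates Smad1, Smad5 or Smad9, which join Smad4, enter the nucleus and switch on target genes, while Smad6 and Smad7 are feedback inhibitors that many of these signals induce. The Id genes are the best known direct targets. Id proteins have the helix-loop-helix domain of basic helix-loop-helix (bHLH) transcription factors but lack the basic region that contacts DNA, so that they hold bHLH partners, above all the E proteins, away from DNA. In mouse embryonic stem cells, BMP4 and serum are known to maintain Id expression, and Id proteins are known to hold back neural differentiation together with the cytokine LIF.

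Promoter sequences of 8 of the 10 genes (Id1 and Smad7 are not shown) were read from the RefSeq annotation of build GRCm38.p6. The 250 bases upstream of the annotated start of 3 Id genes are shown so that the short sequences known for Smad binding can be compared between family members. These are chr12:25096093-25096342 on the minus strand for Id2, chr4:136143572-136143821 on the plus strand for Id3 and chr13:48260866-48261115 on the plus strand for Id4, each read 5′ to 3′ with the start site after the last base. Capitals mark GGCGCC, a GC-rich sequence that BMP Smads bind, and GTCT or its reverse complement AGAC, the Smad-binding element.
Id2: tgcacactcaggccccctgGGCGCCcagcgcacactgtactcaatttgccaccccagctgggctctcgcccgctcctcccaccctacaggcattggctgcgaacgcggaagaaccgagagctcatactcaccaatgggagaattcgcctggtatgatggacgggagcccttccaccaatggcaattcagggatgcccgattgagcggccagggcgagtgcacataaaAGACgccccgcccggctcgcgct
Id3: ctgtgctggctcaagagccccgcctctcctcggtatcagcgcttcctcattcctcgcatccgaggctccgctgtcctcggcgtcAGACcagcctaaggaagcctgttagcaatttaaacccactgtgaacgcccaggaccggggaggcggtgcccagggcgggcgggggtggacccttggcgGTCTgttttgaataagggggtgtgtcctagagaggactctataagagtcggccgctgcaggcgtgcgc
Id4: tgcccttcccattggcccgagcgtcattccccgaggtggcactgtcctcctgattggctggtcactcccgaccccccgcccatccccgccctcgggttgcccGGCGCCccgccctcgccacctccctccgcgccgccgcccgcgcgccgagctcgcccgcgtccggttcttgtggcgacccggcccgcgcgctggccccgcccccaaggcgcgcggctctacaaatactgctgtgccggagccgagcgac

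GGCGCC, which reads the same on both strands, occurred 1 time in the Id2 window, beginning 231 bases before the start, and 1 time in that of Id4, 148 bases before it. The window of Id3 had 0. Searched on both strands, GTCT occurred 1 time for Id2, 23 bases before the start, 2 times for Id3, 166 and 68 bases before it, and 0 times for Id4. No match of one sequence overlapped a match of the other in these 3 windows. Over the 32851 promoters of the same length in the table, 9.59% held GGCGCC and 82.9% held GTCT, so the short Smad-binding element is found in most promoters. GGCGCC was in at least 1 promoter window of 4 of the 8 genes with a sequence, namely Id2, Id4, Bmpr1a and Smad5. Counted by window, as those shares are, it was in 4 of the 10 windows of the 8 genes. GTCT was in 5 of the 8 genes and in 7 of the 10 windows, against 82.9% of all promoters. All 10 windows of these genes were richer in G and C than the median promoter, at 60% or above against 52.4%. The E-box CANNTG, the sequence that bHLH factors bind, was in 3 of the 8 genes (Id2, Bmp4 and Smad5). By window it was in 4 of 10, against 66.2% of all promoters. The windows are not all separate, since 2 of Smad5 overlap (chr13:56702760-56703009 and chr13:56702802-56703051). The same E-box and the same GTCT match were counted in both of these. A match is a string of letters and does not show that a factor bound there, and enhancers farther from the gene lie outside these windows.

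The 4 Id genes all had higher values in the +Dox-labelled array. Id2 had a value of 10.89 in the +Dox-labelled array, against 8.85 in the -Dox-labelled array, a difference of 2.03 or 4.10-fold. Id1 had 10.52 in the +Dox-labelled against 8.66 in the -Dox-labelled array, a difference of 1.85 or 3.61-fold. Both values of each gene lay well above the expression filter, set at the median value over both arrays (6.48). Id3 had 7.19 in the +Dox-labelled array and 5.75 in the -Dox-labelled array, a difference of 1.44 or 2.71-fold. Id4 had 7.06 in the +Dox-labelled against 6.39 in the -Dox-labelled array, a difference of 0.67 or 1.59-fold, and it stayed below 2-fold. Id3 and Id4 passed the filter through the +Dox-labelled array alone. The table has no detection call, so their values in the -Dox-labelled array cannot be told from background, and the fold change of a dim gene is compressed in RMA values. In bulk RNA, more cells with a transcript and more of it per cell cannot be told apart, and the same holds for lower values.

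**Figure D1:**
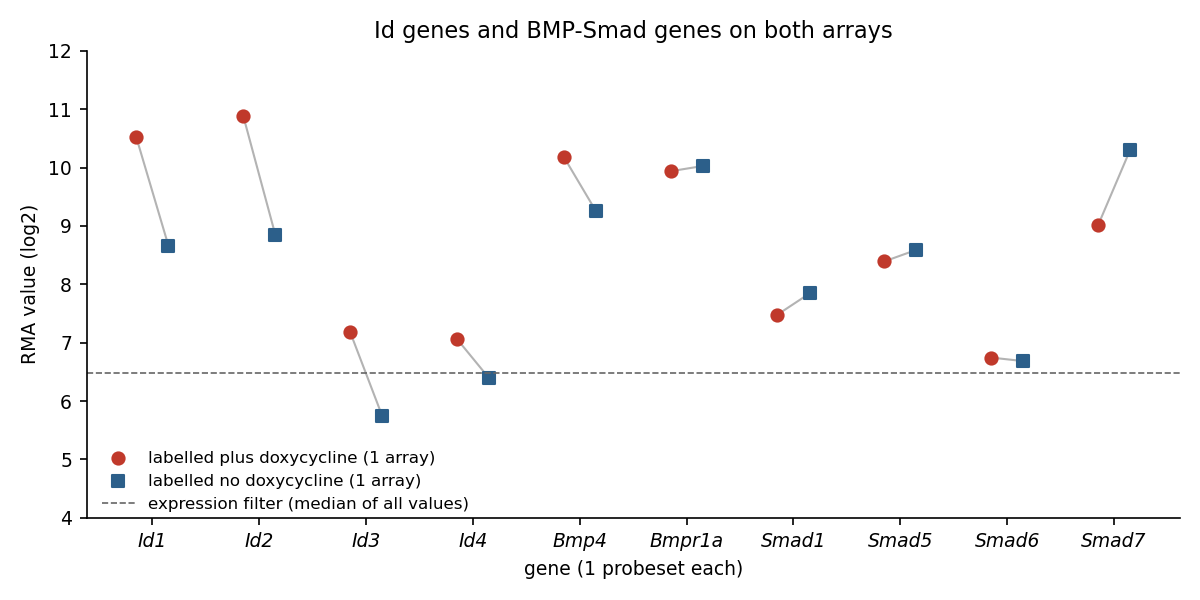
RMA values (log2, vertical axis) of the 10 genes on the +Dox-labelled array (red circles) and the -Dox-labelled array (blue squares), 1 array each, with the expression filter as a dashed line. The 4 Id genes and Bmp4 are higher with the plus label, Smad7 is lower (9.01 in the +Dox-labelled against 10.30 in the -Dox-labelled array), and the other 4 genes differ by at most 1.29-fold.

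Among the 11191 genes that passed the filter, ordered from the largest positive difference down, Id2 stood at rank 7, Id1 at rank 8, Id3 at rank 30 and Id4 at rank 263, and the ranks of Id3 and Id4 are approximate because their values in the -Dox-labelled array cannot be told from background. Because the size of differences varies with the level of expression, all genes were also sorted into 20 bins by mean level, each with about 997 genes. Within its bin Id1 had the largest positive difference, Id2 the second largest, and Id3 the rank of 4, while Id4 had rank 36. Bins of low to middling level, 2 to 11 counted from the dimmest, leaned towards positive differences (bin medians ran from -0.09 to 0.11 over the 20 bins), and Id3 lay 1.38 and Id4 0.65 above the median of their own bins. By the rule of the nearest difference, the genes closest to Id2 over the 2 arrays were Emp1 (2.14) and Fgf18 (2.15). Those closest to Id1 were Plxnc1 (1.80) and Mfsd6 (1.75), and those closest to Id3 were Dpysl5 (1.43) and Cyp2s1 (1.42). With 1 array per group this likeness is a like size of difference and nothing more.

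**Figure D2:**
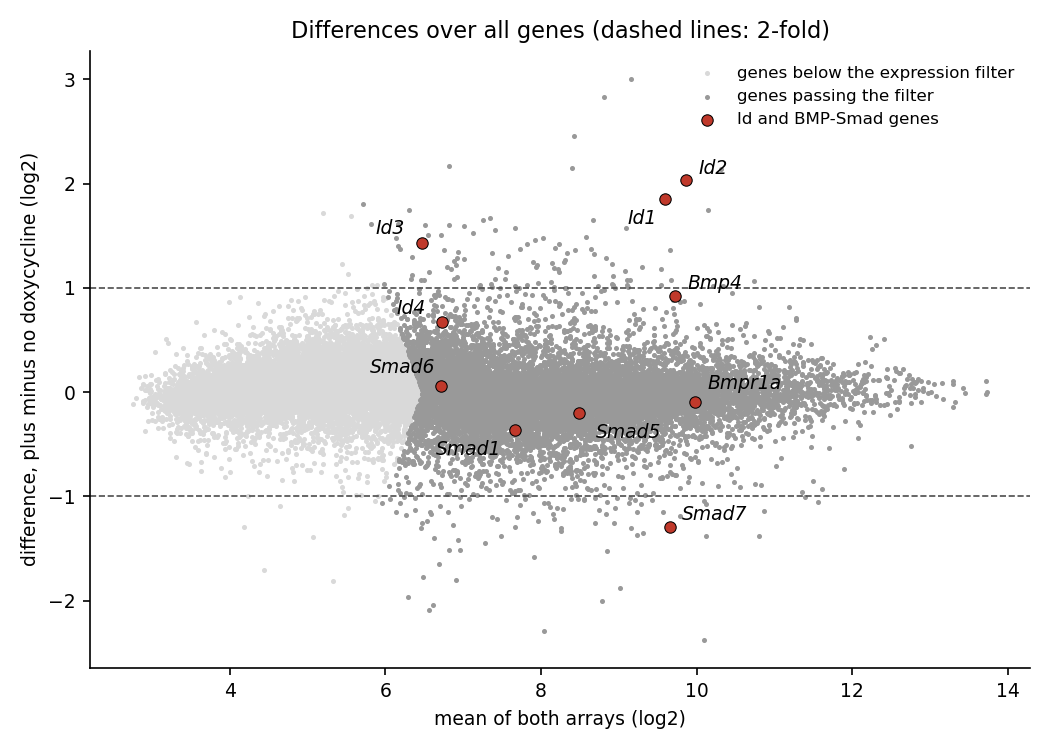
Difference between the arrays (log2, plus minus no doxycycline, vertical axis) against the mean of both arrays (log2, horizontal axis) for all 19938 genes, with the 10 genes in red and dashed lines at 2-fold. Id1 and Id2 lie at the upper edge of the cloud for their level and Smad7 at its lower edge, while Bmpr1a, Smad1, Smad5 and Smad6 lie inside it.

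With 2-fold as the limit, 3 of the 10 genes were called higher (Id1, Id2 and Id3), where 0.920% of the 11191 genes passing the filter were called higher. One gene, Smad7, was called lower, where the share of all genes was 0.768%. In either direction the share was 1.69%. The genes were chosen with these differences known, so the counts are not set against those shares as evidence.

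Bmp4 encodes the ligand most closely tied to self-renewal of mouse embryonic stem cells. It had 10.18 in the +Dox-labelled array, against 9.26 in the -Dox-labelled array, a difference of 0.93 or 1.90-fold. This lies just under the 2-fold limit, at rank 128 of all genes passing the filter and rank 6 in its bin. Bmpr1a, the type I receptor for BMP4, was nearly level between the arrays, with 9.94 in the +Dox-labelled against 10.03 in the -Dox-labelled array and a difference of -0.09.

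The Smads that carry the signal differed little and in both directions. Smad1 had 7.48 in the +Dox-labelled array and 7.84 in the -Dox-labelled array, a difference of -0.36 or 1.29-fold. Smad5 had 8.39 in the +Dox-labelled against 8.59 in the -Dox-labelled array, a difference of -0.20 or 1.15-fold. Neither was near 2-fold, and in their bins they stood at rank 131 and rank 287 from the lowest difference. Genes with 2 probesets passing the filter give a sense of scale. Over 492 such genes, the differences of probesets for the same gene scattered with an SD of 0.167. This is a spread on one pair of arrays and not between cultures, and it leaves out probesets below the filter. Smad9, the remaining BMP Smad, was below the filter at 6.32 in the +Dox-labelled against 6.09 in the -Dox-labelled array. Smad4, the shared partner of all signalling Smads, differed by 0.06 (10.03 in the +Dox-labelled against 9.98 in the -Dox-labelled array). The Smads of the activin and TGF-beta branch had differences of -0.12 for Smad2 and -0.11 for Smad3.

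The inhibitory Smads parted. Smad7, which blocks type I receptors of both the BMP and TGF-beta branches, had 9.01 in the +Dox-labelled array, against 10.30 in the -Dox-labelled array. The difference was -1.29, or 2.44-fold lower, the 28th lowest of the 11191 genes and the third lowest in its bin of 997. Smad6, which acts mainly on the BMP branch, had 6.75 in the +Dox-labelled against 6.68 in the -Dox-labelled array, a difference of 0.06. Its values lie close to the filter, where a difference is compressed.

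The differences of the 10 genes kept their signs with a smooth trend removed and with quantile normalization. Adding 32 to each linear value keeps the order of the arrays, so it cannot change a sign. After the removal of a smooth trend on expression level, after quantile normalization of both columns, or with 32 added to each linear value before the logarithm, Id2 ran from 1.96 to 2.07, Id1 from 1.77 to 1.89 and Smad7 from -1.26 to -1.24. Bmp4 ran from 0.89 to 0.96 and did not reach 2-fold under any of these. Id3 was the gene that moved, to 1.05 with the offset, which damps dim genes. Id4 ran from 0.51 to 0.67 on the log2 scale.

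**Figure D3:**
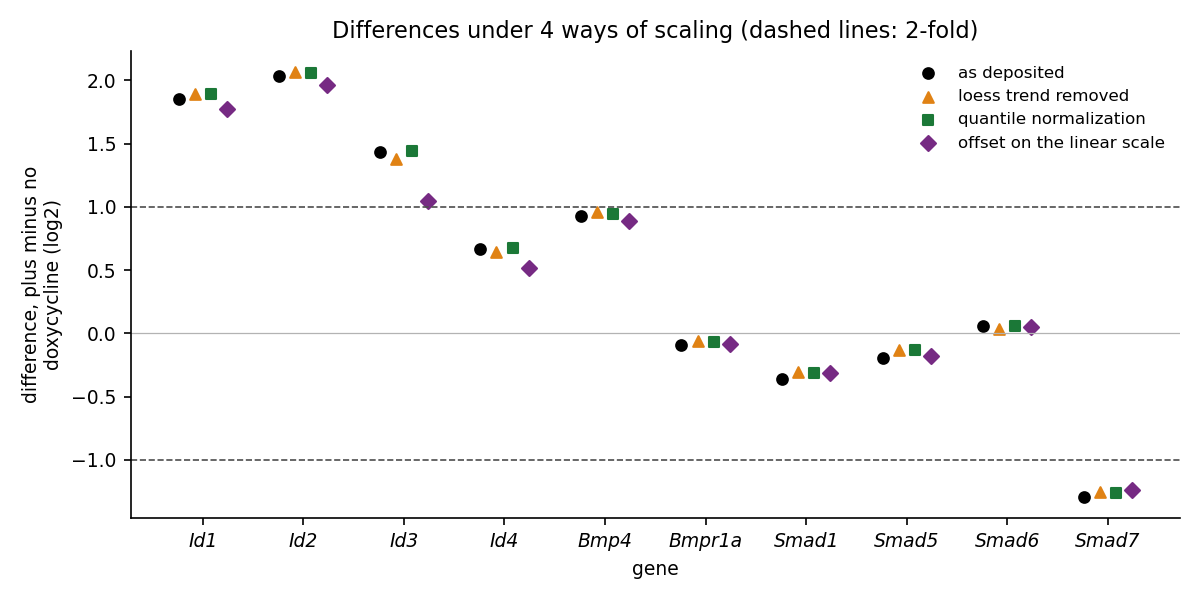
Difference between the arrays (log2, plus minus no doxycycline, vertical axis) of the 10 genes with the values as deposited and under 3 other scalings, with dashed lines at 2-fold. The symbols of a gene lie close together, except that Id3 drops to 1.05 with the offset on the linear scale.

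The rest of the pathway was examined through lists of ligands, receptors, Smads, regulators, antagonists and other response genes. Leaving out the 10 genes, these lists named 65 genes, of which 63 were measured and 40 passed the filter. Of these, 0 were called in either direction, which is close to the 1.69% called among all genes passing the filter and no result about the pathway by itself. Differences of the 40 ran from -0.51 to 0.64. The median over the 63 measured genes was 0.14, against 0.01 over all 19938 measured genes. Of the 63, 23 lay below the filter, and genes of low to middling level leaned positive on these arrays. The median of the 63 together was not computed with that trend removed, so 0.14 is no measure of a shift of the pathway.

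The 12 BMP and BMP-like ligand genes all had positive differences, with a median of 0.28. Bmp8b, a ligand known for its part in germ cell formation, had 7.22 in the +Dox-labelled array against 6.58 in the -Dox-labelled array, a difference of 0.64. Bmp8a differed by 0.38 and Gdf7 by 0.31, and both passed the filter through the +Dox-labelled array alone. Only 6 of the 12 had a level that passed the filter, and genes of low to middling level leaned positive on these arrays as a whole. With the trend on expression level removed, 11 of the 12 were positive and the median was 0.20. Over all measured genes, 51.6% of differences were positive.

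Among the 12 receptor and co-receptor genes, 10 passed the filter and their differences stayed between -0.23 and 0.37. The endothelial type I receptor gene Acvrl1 had 0.37, the co-receptor genes Rgma and Tgfbr3 had 0.31 and 0.28, and Acvr1, another type I receptor gene, had -0.23. Acvrl1 and Tgfbr3 passed the filter through the +Dox-labelled array alone. Bmpr2, the type II receptor gene, differed by 0.23 (10.42 in the +Dox-labelled against 10.19 in the -Dox-labelled array). None of these genes approached 2-fold.

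Regulators that act inside the cell showed differences in both directions. Smurf1, a ubiquitin ligase that marks BMP Smads and receptors for breakdown, was 1.45-fold higher, with 9.05 in the +Dox-labelled array against 8.51 in the -Dox-labelled array. Bambi, a decoy receptor that is itself a BMP response gene, was 1.42-fold lower, with 7.33 in the +Dox-labelled against 7.84 in the -Dox-labelled array. Tob1, which binds Smads and dampens BMP signals, had -0.27, and the corepressor gene Skil had 0.16. The median of the 10 measured regulators was -0.02, or 0.04 with the expression trend removed.

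The secreted antagonists, which bind BMPs outside the cell, were mostly dim, and 8 of the 15 measured lay below the filter. Of those passing, Chrd had -0.36, Fstl1 0.35, Nbl1 0.34 and Twsg1 -0.27. Nbl1 passed the filter through the +Dox-labelled array alone and Chrd through the -Dox-labelled array alone. Noggin, encoded by Nog, lay just below the filter at 6.39 in the +Dox-labelled against 6.21 in the -Dox-labelled array.

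Genes other than Id genes and Smads that are known to respond to BMP in some cell type had differences of both signs. Of 13 measured, 8 passed the filter and 0 were called, too few genes for a share of 1.69% to yield a call, with a median of 0.05 that became -0.02 with the expression trend removed. Hey1, a bHLH repressor, had 7.05 in the +Dox-labelled array against 6.48 in the -Dox-labelled array, a difference of 0.57. Msx1, a homeobox gene, had 6.72 in the +Dox-labelled against 6.19 in the -Dox-labelled array, a difference of 0.53. Both passed the filter through the +Dox-labelled array alone. Dusp9, a phosphatase gene that BMP signals are known to induce in mouse embryonic stem cells, ran the other way, at 9.87 in the +Dox-labelled against 10.39 in the -Dox-labelled array and a difference of -0.51. Bambi, described above, is in this list too.

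**Figure D4:**
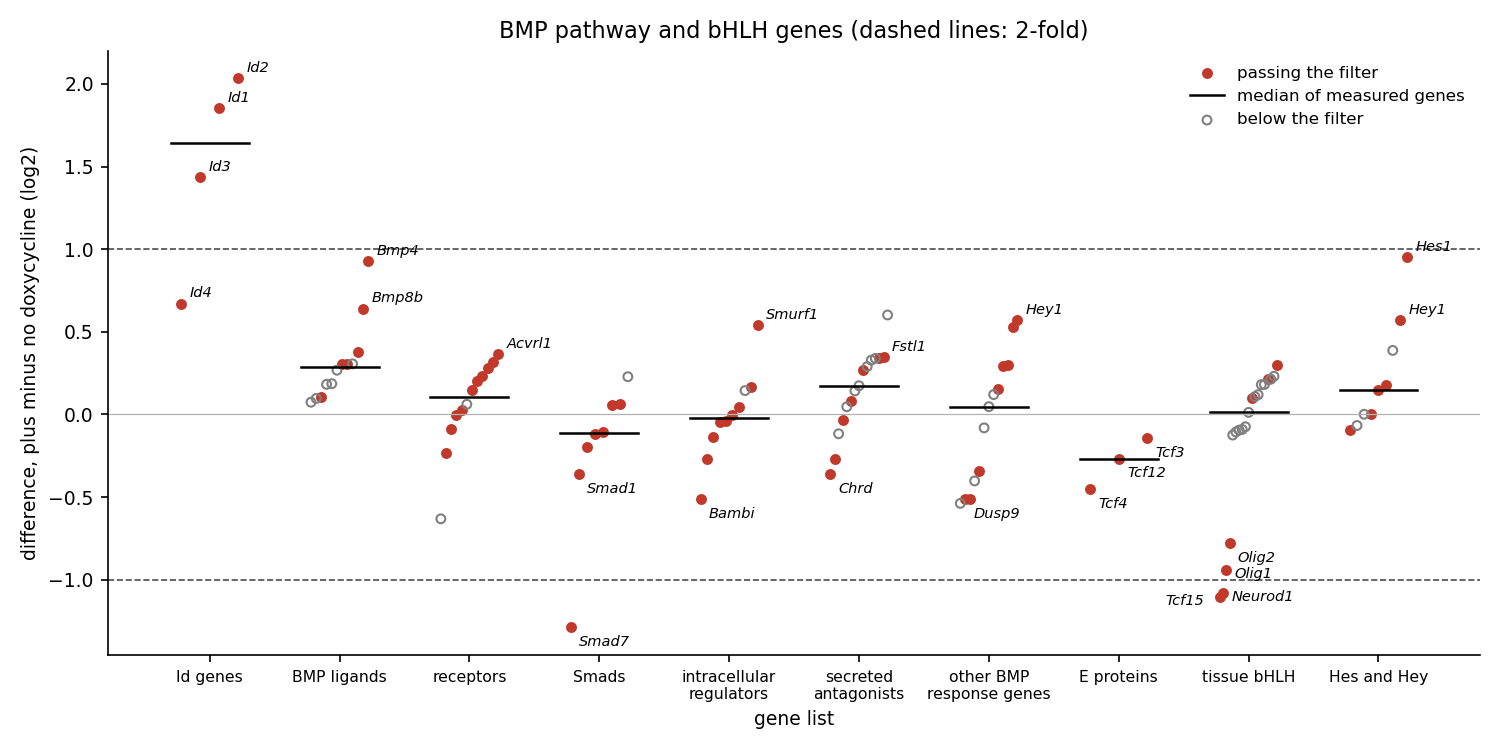
Difference between the arrays (log2, plus minus no doxycycline, vertical axis) of the Id genes and of each list of pathway and bHLH genes (horizontal axis), with filled points for genes passing the filter, open points for genes below it, bars for medians of the measured genes and dashed lines at 2-fold. Outside the Id genes, points beyond 2-fold are Smad7, Tcf15 and Neurod1, all lower.

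Id proteins act by binding other helix-loop-helix proteins, so the genes of those partners were examined as well. The 3 E protein genes, whose products pair with tissue bHLH factors, all had small negative differences. Tcf4 had 8.39 in the +Dox-labelled array against 8.85 in the -Dox-labelled array, a difference of -0.45. Tcf12 had -0.27 and Tcf3, which encodes E12 and E47, had -0.15.

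Of the 20 tissue-restricted bHLH genes, 19 were measured and 7 passed the filter. Of these 2 were called lower and 0 higher, where 0.768% of all genes passing the filter were called lower and 0.920% higher. The list was chosen with earlier results of these data known, so its counts are not set against those shares as evidence. Tcf15, a bHLH factor known in mouse embryonic stem cells as a target that Id proteins inhibit and as a gene of cells primed to differentiate, had 8.39 in the +Dox-labelled array. Its value in the -Dox-labelled array was 9.50, a difference of -1.11 or 2.15-fold lower. Neurod1, a neuronal differentiation factor, had 7.20 in the +Dox-labelled against 8.28 in the -Dox-labelled array, a difference of -1.08 or 2.12-fold lower, which became -0.94 with the offset of 32 on the linear scale. The neural genes Olig1 and Olig2 had -0.94 and -0.78 and stayed under 2-fold. Hand1, at 0.30, was the most positive of those passing. The other 12 measured genes lay below the filter, and the median of all 19 was 0.01, or -0.01 with the expression trend removed.

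The Hes and Hey repressors, a separate bHLH group best known as Notch targets, had 9 measured genes, of which 6 passed the filter and 0 were called, where 1.69% of all genes passing the filter were called. Hes1 was the most different, with 8.82 in the +Dox-labelled array against 7.87 in the -Dox-labelled array. Its difference of 0.95 was 1.02 with the expression trend removed and also passed 2-fold after quantile normalization. Hey1 is described above, Hes7 had 0.18, passing the filter through the +Dox-labelled array alone, and Hes5 had 0.15.

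The labelled cell type was checked on the same arrays, beside markers of other cell types. All 10 markers of embryonic stem cells passed the filter, with values of 10.27 to 12.49 in the +Dox-labelled array and of 10.38 to 13.01 in the -Dox-labelled array. Their summed linear level was 28150.3 in the +Dox-labelled array and 36614 in the -Dox-labelled array, 8 of the 10 differences were negative, and the median was -0.44 with or without the expression trend. After Sox2, the most different were Utf1 (-0.95), Tdgf1 (-0.73) and Dppa5a (-0.52). The summed linear level of the 10 fibroblast markers was 1119 in the +Dox-labelled array and 899.9 in the -Dox-labelled array, with 7 passing the filter and Postn, Lum and Dcn below it. The most different of those passing were Fbln2 (0.52), Col1a2 (0.50), Col5a1 (0.45) and Col1a1 (0.45). For the 10 trophectoderm markers it was 3526 (+Dox-labelled) and 1866 (-Dox-labelled), or 1452 (+Dox-labelled) and 1249 (-Dox-labelled) without Krt8, and the median difference was 0.08, with Cdx2, Elf5, Gata3 and Krt7 below the filter and Krt8 called higher (1.75), followed in size by Tead4 (0.98), Tfap2c (-0.83) and Hand1 (0.30). For the 10 primitive endoderm markers it was 1703 (+Dox-labelled) and 1669.9 (-Dox-labelled), with Afp below the filter and Pdgfra (-0.43), Hnf4a (0.34), Dab2 (-0.33) and Gata4 (0.24) the most different. For the 9 measured mesoderm markers it was 752 (+Dox-labelled) and 702 (-Dox-labelled), with Mesp1, Kdr and Evx1 below the filter and Msx1, Hand1, Eomes (-0.24) and Gsc (-0.08) the most different of those passing. No detection call separates these levels from background, and their part in the differences of the Id genes and Smad7 was not tested.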

How the data were processed

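The authors deposited 1 log2 value per probeset and array, made with Affymetrix Expression Console and RMA per the submitters' processing notes. The sources used here do not give versions, build or annotation. The 35556 values per array (medians 6.49 plus doxycycline, 6.47 no doxycycline) were used unchanged. RMA aligns array distributions, which hides a shift of most transcripts. The platform annotation assigned 21789 probesets to 1 gene, which gave 19938 genes, 1621 to several genes, and did not list 12146.

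A gene was called when its higher value reached 6.48 and the arrays differed at least 2-fold. No test was possible with 1 array per group, and the number of arrays limits precision. The 10 genes and the lists were chosen with earlier results of these data known, and 144 of 148 listed symbols were measured. The text names the 10 genes, all Smads and E proteins, the called genes of each list, its 4 most different genes above the filter, and the 2 genes nearest in difference to Id1, Id2 and Id3. Bmpr2, Nog, Pou5f1, Klf4, Myc, Hand1 among bHLH genes, and chromosomal neighbours were named after their values were seen. Motifs were searched in 250 bases upstream of RefSeq starts. Alternatives were 3 other filters, 3 scalings, the brightest probeset and a 1.5-fold limit. The calling, trend, quantile and bin steps were checked on simulated data. The list summaries, nearest genes, motif search and neighbours were not. The software was Python 3.11.15 with pandas 2.3.3, NumPy 2.4.6, matplotlib 3.10.9 and statsmodels 0.14.6.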

Additional observations from a re-analysis of the deposited data

How the results depend on the processing

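The differences of the 10 genes kept their sign with the loess trend removed and with quantile normalization. The offset of 32 on the linear scale cannot change a sign, since it keeps the order of the arrays. The brightest probeset was fixed in advance to change no value, since each of the 10 genes has 1 probeset. Over these 4 alternatives, 39 of the 40 values, 10 of them fixed in this way, moved by less than the 0.167 spread between probesets. The exception was Id3 with the offset, at 1.05 against 1.44. The counts of 3 of these genes higher and 1 lower came out the same under 6 of the 8 alternatives. Among these 6, no filter, the filter at the 25th percentile and the brightest probeset could not have changed the counts. All 10 genes pass the reported filter already, and each has 1 probeset. With the filter at the 75th percentile of the table they were 2 higher and 1 lower, since Id3 lay below it, and with the 1.5-fold limit 5 higher and 1 lower. That limit also gave 2 ligands and 1 Hes or Hey gene higher, 4 tissue bHLH genes lower, and 363 genes higher and 425 lower among all genes. With the offset, 1 tissue bHLH gene was called lower, and 66 genes were higher and 49 lower among all genes, where dim genes are damped by construction. The stricter filter, which tests fewer genes, left 57 genes higher and 52 lower. Hes1, at 0.95 as deposited, was called higher with the loess trend removed (1.02) and with quantile normalization (1.01), each just past the 2-fold limit. The cause of this small shift was not tested. Of 176 recounted values, 124 were 0 before and after, which shows nothing about stability. Of the 48 above 0 as reported, 39 stayed within 1.5 times, which is no measure of stability either. Smad7 alone makes up the lower count both of the 10 genes and of the Smads. Some counts could not have changed, as stated above, and the change from 3 to 2 genes higher is among the 39. No paired analysis was possible because each group has 1 array. Id3, Id4 and Smad6, near or below the median signal, are the least certain of the 10 genes.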

Other observations

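The genes next to each of the 10 along its chromosome were examined as a description, with the gene order of GRCm38.p6 and 5 measured genes on each side. Of these 100 neighbours 65 passed the filter and 1 was called, close to the 1.69% of all genes passing the filter, and their median difference was 0.03. The medians around single genes ran from -0.12 at Id3 to 0.11 at Bmp4. The neighbours of Id1 and Id2 included 0 called genes, with the highest differences at Defb25 (0.65) beside Id1 and Mboat2 (0.64) beside Id2. Smad7 had neighbours between -0.17 and 0.30.

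Beside Id3, the 3 nearest measured genes on the side of higher coordinates were all lower with the +Dox label, and Id3 was higher. They were the cell cycle factor gene E2f2 (7.23 in the +Dox-labelled array against 7.94 in the -Dox-labelled array, difference -0.71), Asap3 (7.32 in the +Dox-labelled against 7.93 in the -Dox-labelled array, difference -0.61) and the transcription elongation factor gene Tcea3 (8.04 in the +Dox-labelled against 9.07 in the -Dox-labelled array, difference -1.04, called lower). Farther out on that side Zfp46, below the filter, had 0.20 and Hnrnpr -0.09. On the other side, from the nearest gene outwards, Eloa had 0.13, Pithd1 0.02, Lypla2 -0.15, Fuca1 -0.44 and Cnr2, below the filter, 0.16. Lower values were thus found on both sides of Id3. E2f2, Asap3 and Tcea3 were singled out after their values were seen. Beside Smad5, Tgfbi had 6.87 in the +Dox-labelled against 7.80 in the -Dox-labelled array, a difference of -0.94.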
